A study of Drosophila melanogaster with 72 samples.

Results

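Nuclear RNA of the outer photoreceptors of the Drosophila eye was compared between the end and the start of the light phase in control flies. The comparison rests on 6 of the 72 libraries of the series, the 3 that the labels give as mCherry RNAi at ZT12 and the 3 given as mCherry RNAi at ZT0. ZT is zeitgeber time in hours, so that lights came on at ZT0 and went off at ZT12 in a cycle of 12 h of light and 12 h of dark. The wider study knocked down 3 H3K4 methyltransferases (Set1, Trr and Trx) beside the mCherry control at 6 times of day, with 3 replicates of each. The 12 other mCherry RNAi libraries and the Set1 RNAi libraries at ZT12 and ZT0 served only to place the difference between these time points.

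Both groups carried the same alleles. Flies of w1118;; UAS-GFP-Msp300KASH attP2, rh1-GAL4 3, ry506 were crossed to UAS-mCherry-RNAi attP2, and male offspring were collected at D10, 10 days after eclosion, give or take a day. The Rh1-Gal4 driver, active in R1 to R6 cells, expressed both the GFP tag of the nuclear envelope and the RNAi hairpin, and mCherry has no counterpart in the fly genome, so that no knockdown can be checked. ZT12 flies were collected under red light, a difference that cannot be told apart from the hour, and neither can a difference in the day of preparation, which the labels do not give. Each library came from nuclei pulled down by their GFP from many pooled heads, so a library is a pool and not an animal. The 3 replicates of a time point were separate samples, and the labels do not say whether they were separate crosses or days. The p-values below measure the spread between these samples. Reads came from RNA depleted of rRNA, so introns and unspliced transcripts were sequenced along with mature RNA, while only read pairs on annotated exons were counted, with no use of strand.

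The circadian clock of Drosophila is a feedback loop. The transcription factors Clock (Clk) and Cycle (cyc) switch on period (per) and timeless (tim), whose proteins accumulate in the dark and then block Clk and Cycle, while light degrades Timeless through cryptochrome (cry). A second loop of vrille (vri) and Pdp1 drives Clk itself, which is therefore made in antiphase to per and tim. Photoreceptors hold such a clock of their own and are also driven directly by light, which opens the TRP and TRPL channels through Rhodopsin 1, a G protein and phospholipase C.

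The libraries held 8522393, 12120940 and 14087302 counts at ZT12, against 21479511, 13106305 and 10639121 at ZT0. Replicate 1 of ZT12 stood apart. It detected 8362 of 17895 genes with an FBgn identifier, where the other 5 libraries of the comparison detected 13083 to 14713 and the 17 other mCherry RNAi libraries 12597 to 15448. Of the 9573 genes tested it held 0 counts in 1806, against 2 and 4 in the other ZT12 libraries. This was not confined to low genes, since 45 of the 4833 genes at or above 10 CPM (counts per 1000000 counts on FBgn genes) in ZT12 replicates 2 and 3 were at 0 in replicate 1. The counts over all genes and over the gene lists and the log2 fold changes are therefore given with and without it, while the calls followed through nested genes, other times of day and Set1 RNAi are those made with it. Of the 8 markers of outer photoreceptors all were measured in every library, and their summed level was 65974 to 68537 CPM at ZT12 and 41953 to 46815 CPM at ZT0. Summed markers were 101 to 127 CPM at ZT12 and 95.2 to 178 CPM at ZT0 for inner photoreceptors, 23 to 62.1 and 43.4 to 81.7 CPM for lens and cone cells, and 310 to 398 and 263 to 453 CPM for brain neurons. They were 168 to 197 CPM at ZT12 and 114 to 196 CPM at ZT0 for glia, 20.9 to 46.6 and 14.2 to 40.5 CPM for muscle, 136 to 171 and 125 to 193 CPM for hemocytes, and 3278 to 3526 and 1770 to 2993 CPM for fat body. Among the 35 genes of these 7 lists that were tested only Eaat1 and FASN1 passed the test, both described below (1 other had an unadjusted p under 0.05 and 0 others were called by DESeq2), and 1 lens and cone cell marker was called lower as well without ZT12 replicate 1. Of the outer photoreceptor markers 3 were higher and 2 lower, or 2 and 2 without that library. Over all genes tested 2.52% were higher and 2.43% lower, together 4.95%. Without that library the shares were 5.76% and 7.63%. In such bulk samples, fewer nuclei of a type and less RNA per nucleus cannot be told apart.

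At the end of the light phase the transcripts of tim, per, vri and Cipc were at 40.2 to 54.9 times their level at lights on, while Clk was 32.7-fold lower. The early-response factor Hr38 and the light-activated channels trp and trpl were higher too, and the potassium channels Sh, eag and SK and the ecdysone receptor EcR were lower. Of 9573 genes tested, 474 had an adjusted p under 0.05 in the quasi-likelihood test of edgeR, which is 4.95% of those tested. Of these, 241 were higher at ZT12 (2.52%) and 233 were lower (2.43%). The median log2 fold change of ZT12 over ZT0 was 1.27 among the higher genes and -1.19 among the lower ones, and 17 and 19 of them differed by 8-fold or more. In all 474 the ZT12 libraries lay entirely above or below the ZT0 libraries, as they did in 10.9% (above) and 19.6% (below) of all genes tested, 30.4% together. A lack of overlap stated below for a called gene therefore adds nothing to its call. At the stricter threshold of an adjusted p under 0.01 with a 2-fold difference, 199 genes (2.08%) were called. Without ZT12 replicate 1 the test called 570 higher (5.76%) and 755 lower (7.63%), together 13.4% of 9893 genes. Of the 241 and 233 genes called with it, 235 and 230 were called again and 0 changed sign, which the lack of overlap in all 474 nearly fixes. DESeq2 called 461 (4.82%) and 462 (4.83%), together 9.64%. The median of the 9573 genes was -0.13 with and -0.05 without that library, and that of the 9893 genes tested without it was -0.04.

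**Figure D1:**
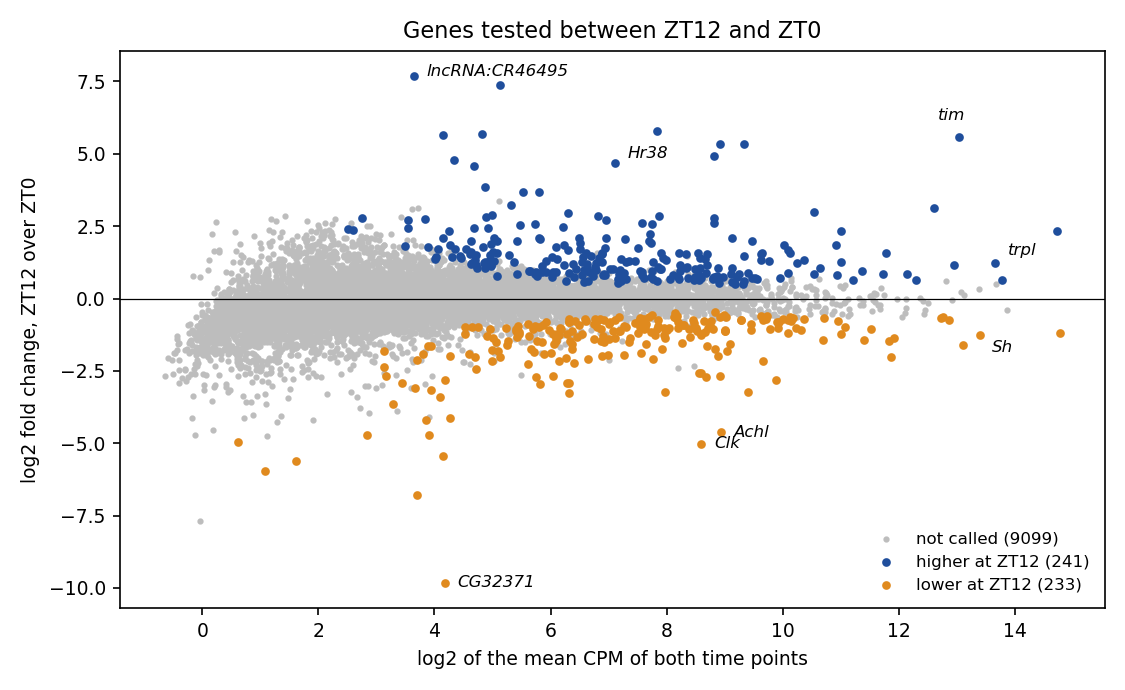
Log2 fold change of ZT12 over ZT0 (vertical axis) against the log2 of the mean CPM of both time points (horizontal axis) for the 9573 genes tested, with the 241 genes higher at ZT12 in blue, the 233 lower in orange and the others in grey. Called genes lie at low and at high levels, and the clock genes tim and Clk stand far from the axis in opposite directions.

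Of the gene lists, the core clock had the median farthest from 0. Of its 9 genes, all tested, 6 were higher at ZT12 and 1 was lower, and the list's median log2 fold change was 4.93, against -0.13 over all genes. Leaving out ZT12 replicate 1 gave 6 higher and 2 lower, with a median of 4.81. The activator target tim (FBgn0014396, 2L, bases 3493986 to 3508119, minus strand of BDGP6.46), whose protein dimerizes with Period, had 16458, 16093 and 16738 CPM in the ZT12 libraries, against 376, 347 and 329 CPM in the ZT0 libraries. Its log2 fold change was 5.59 (SE 0.12, edgeR adjusted p = 1.98e-06), or 5.55 without ZT12 replicate 1. The 3 libraries of each time point agreed closely and the groups were far apart. Its partner per (FBgn0003068, X, bases 2685580 to 2692780, plus strand) had 945, 942 and 939 CPM at ZT12, against 24.7, 25.1 and 22.5 CPM at ZT0, and its log2 fold change was 5.33 (SE 0.13, edgeR adjusted p = 2.77e-06), or 5.29 without ZT12 replicate 1. The replicate SD at ZT12 was 324 CPM for tim and 2.62 CPM for per.

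The second loop moved with them. The repressor vri (FBgn0016076, 2L, bases 5288944 to 5311223, plus strand) had 1362, 1307 and 1113 CPM in the ZT12 libraries, against 35.2, 30.4 and 31.5 CPM in the ZT0 libraries, a log2 fold change of 5.33 (SE 0.14, edgeR adjusted p = 3.76e-06), or 5.22 without ZT12 replicate 1. Pdp1 (FBgn0016694, 3L, bases 7811458 to 7867369, minus strand), which activates Clk, had 11695, 10232 and 11469 CPM at ZT12, against 1279.5, 1448 and 1167 CPM at ZT0, a log2 fold change of 3.14 (SE 0.15, edgeR adjusted p = 9.62e-05), or 3.06 without ZT12 replicate 1. It had the smallest ratio of the 6 risers, and its level at ZT0 was already 1167 CPM or more. The repressor clockwork orange, cwo (FBgn0259938, 3R, bases 10388258 to 10400752, plus strand), had 959, 1028 and 618 CPM at ZT12, against 43.4, 24 and 21.7 CPM at ZT0, a log2 fold change of 4.93 (SE 0.32, edgeR adjusted p = 0.000331), or 4.81 without ZT12 replicate 1. Cipc (FBgn0051324, 3R, bases 26106868 to 26130674, plus strand), whose mammalian counterpart inhibits CLOCK, had 378, 500.3 and 465 CPM at ZT12, against 12.4, 6.79 and 5.98 CPM at ZT0, the largest log2 fold change of the list at 5.78 (SE 0.27, edgeR adjusted p = 8.89e-05), or 5.84 without ZT12 replicate 1. In all of these the lowest ZT12 library was several times above the highest ZT0 library.

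Clk ran the other way. The gene (FBgn0023076, 3L, bases 7763233 to 7775603, minus strand) had 23.5, 25.9 and 18 CPM in the ZT12 libraries, against 739, 850.5 and 670 CPM in the ZT0 libraries. Its log2 fold change was -5.03 (SE 0.21, edgeR adjusted p = 6.45e-05), or -5.11 without ZT12 replicate 1, so that Clk was low at the hour when per and tim stood high. Its partner cyc (FBgn0023094) had 10.3, 31.8 and 31.2 CPM at ZT12, against 35.3, 30.4 and 36.3 CPM at ZT0. ZT12 replicate 1 was the low library there, the other ZT12 libraries overlapped with ZT0, and the log2 fold change of -0.44 did not pass (edgeR adjusted p = 0.69), nor did that of -0.11 without ZT12 replicate 1 (edgeR adjusted p = 0.742). The blue-light receptor cry (FBgn0025680) had 18.1, 7.83 and 11.2 CPM at ZT12, against 27.2, 22.4 and 26.5 CPM at ZT0. Every ZT12 library was below every ZT0 library, and its log2 fold change was -0.98 (edgeR adjusted p = 0.236) with all libraries and -1.40 (edgeR adjusted p = 0.00352) without ZT12 replicate 1, so cry passed only without that library.

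**Figure D2:**
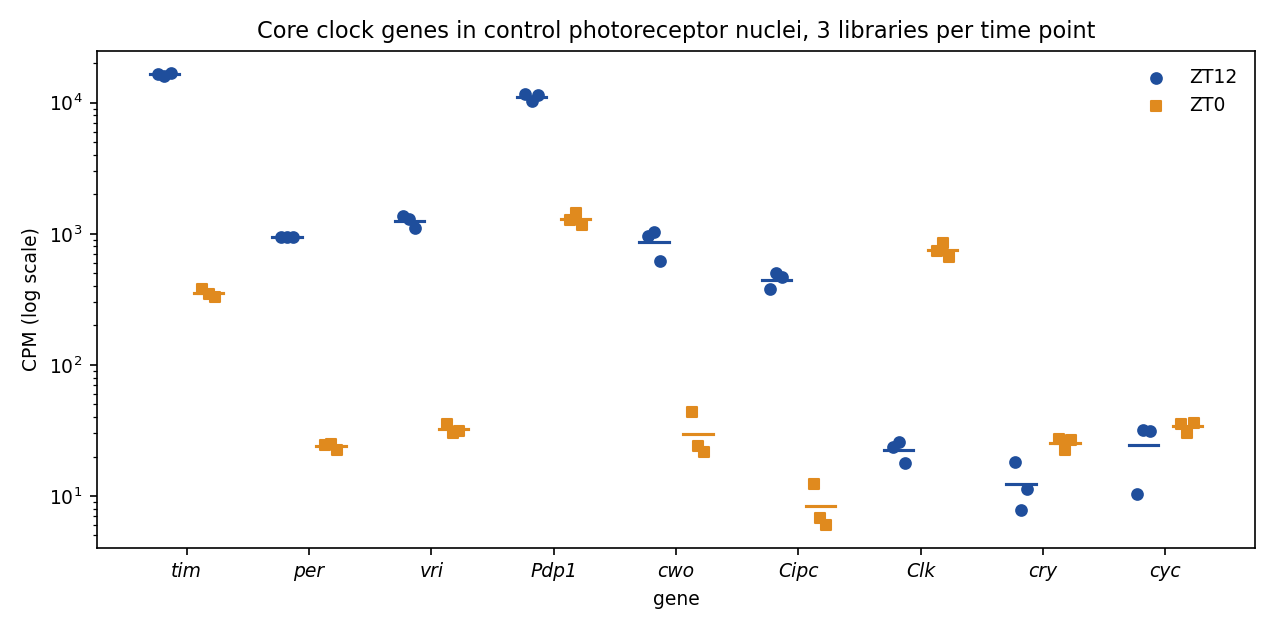
CPM of the 9 core clock genes in each library on a log axis, with ZT12 as blue circles to the left of ZT0 as orange squares and a line at each mean of 3. The ZT12 points of tim, per, vri, Pdp1, cwo and Cipc lie far above their ZT0 points, those of Clk far below, and those of cyc overlap.

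Genes that modify the clock proteins changed less. Of 14 kinases, phosphatases and degradation factors tested, 3 were higher and 0 lower with and without ZT12 replicate 1, with a median log2 fold change of 0.27 and 0.22. Over all genes 2.52% were higher and 2.43% lower, or 5.76% and 7.63% without that library. Doubletime, listed as dco (FBgn0002413), is the casein kinase that phosphorylates Period, and it had 303, 307 and 332 CPM in the ZT12 libraries, against 168, 163 and 149 CPM in the ZT0 libraries. This is a log2 fold change of 1.02 (SE 0.11, edgeR adjusted p = 0.0026), or 1.0 without ZT12 replicate 1. Nemo, nmo (FBgn0011817), a kinase that acts on Period and Clk, had 311, 346 and 402 CPM at ZT12, against 158, 137 and 121 CPM at ZT0, with a log2 fold change of 1.39 (SE 0.13, edgeR adjusted p = 0.00154), or 1.44 without ZT12 replicate 1. Twins, tws (FBgn0004889), a regulatory subunit of protein phosphatase 2A, had 406, 601 and 642 CPM at ZT12, against 189, 186 and 199.6 CPM at ZT0, with a log2 fold change of 1.56 (SE 0.17, edgeR adjusted p = 0.00292), or 1.69 without ZT12 replicate 1. For each of the 3 the groups were about as far apart as a 2-fold to 3-fold difference, and none of the 11 others, such as sgg or slmb, passed.

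Phototransduction genes moved in both directions. Of 23 tested, 3 were higher at ZT12 and 3 lower, and the median of the list was 0.07. The counts were 2 and 3 without ZT12 replicate 1, and the median -0.03. The shares of all genes were 2.52% higher and 2.43% lower, or 5.76% and 7.63% without that library. Both light-activated channels were higher. The channel gene trpl (FBgn0005614) had 16277, 17546 and 20180.4 CPM in the ZT12 libraries, against 7479.6, 8142 and 8274 CPM in the ZT0 libraries, a log2 fold change of 1.21 (SE 0.13, edgeR adjusted p = 0.00272), or 1.24 without ZT12 replicate 1. Its relative trp (FBgn0003861) had 10544, 11441 and 10772 CPM at ZT12, against 4527, 5284 and 5104 CPM at ZT0, a log2 fold change of 1.17 (SE 0.13, edgeR adjusted p = 0.00288), or 1.15 without ZT12 replicate 1. The diacylglycerol kinase gene rdgA (FBgn0261549), needed to shut the channels, had 17875, 17482 and 15445 CPM at ZT12, against 10417, 11019.8 and 11743 CPM at ZT0. Its log2 fold change was 0.65 (SE 0.13, edgeR adjusted p = 0.033), and 0.56 without ZT12 replicate 1, where it no longer passed (edgeR adjusted p = 0.111). The call of rdgA was lost in 6 of 13 alternatives. Lower at ZT12 was inaE (FBgn0261244), the diacylglycerol lipase, with 149.6, 172 and 145 CPM at ZT12, against 435, 479 and 464 CPM at ZT0 and a log2 fold change of -1.53 (SE 0.13, edgeR adjusted p = 0.000991), or -1.55 without ZT12 replicate 1. The scaffold gene inaD (FBgn0001263) had 873, 861 and 718 CPM at ZT12, against 1268, 1465 and 1571 CPM at ZT0, and the protein kinase C gene inaC (FBgn0004784) had 693, 839 and 773 CPM at ZT12, against 1152, 1208 and 1485 CPM at ZT0. Their log2 fold changes were -0.78 (SE 0.16, edgeR adjusted p = 0.0354), or -0.88 without ZT12 replicate 1 and -0.70 (SE 0.15, edgeR adjusted p = 0.0406), or -0.68 without ZT12 replicate 1. The scaffold and the kinase are held with TRP in 1 signalling complex. The calls of inaD and inaC were each lost in 5 of 13 alternatives, the replicate block and the omission of ZT12 replicate 2 or 3 or of ZT0 replicate 2 or 3, while those of trp and trpl were lost in 0. The Rhodopsin 1 gene ninaE (FBgn0002940) had 11996, 11923 and 11327 CPM at ZT12, against 9811, 8927 and 10369 CPM at ZT0, which did not pass (log2 fold change 0.32, edgeR adjusted p = 0.188, or 0.26 and 0.448 without ZT12 replicate 1).

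Of 10 genes of the rhabdomere and apical membrane 3 were higher and 0 lower, with a median of 0.24 (2 and 0 without ZT12 replicate 1, with a median of -0.01). For this list and those that follow, 2.52% of all genes were higher and 2.43% lower. Without that library the shares were 5.76% and 7.63%. Crumbs, crb (FBgn0259685), which sets the size of the apical domain, had 1535, 1666 and 1874 CPM in the ZT12 libraries, against 709, 779 and 736 CPM in the ZT0 libraries and a log2 fold change of 1.23 (SE 0.13, edgeR adjusted p = 0.00227), or 1.25 without ZT12 replicate 1. Moesin, Moe (FBgn0011661), which links actin to the membrane and regulates TRP channels, had 1301, 1089 and 982 CPM at ZT12, against 416, 457 and 499 CPM at ZT0 and a log2 fold change of 1.34 (SE 0.17, edgeR adjusted p = 0.00481), or 1.17 without ZT12 replicate 1. Chaoptin, chp (FBgn0267435), an adhesion protein of the microvilli, had 5997, 6137 and 6024 CPM at ZT12, against 3818, 3879.7 and 4394 CPM at ZT0 and a log2 fold change of 0.62 (edgeR adjusted p = 0.0264), which was not called without ZT12 replicate 1 (edgeR adjusted p = 0.0709). The groups did not overlap in any of the 3, and the call of chp was lost in 6 of 13 alternatives. Of 15 genes of the active zone and synaptic vesicle 1 was higher and 1 lower with and without ZT12 replicate 1, with a median of 0.03 and 0.06. Snap25 (FBgn0011288), which acts in vesicle fusion, had 309, 363 and 413 CPM at ZT12, against 217, 222 and 228 CPM at ZT0 and a log2 fold change of 0.74 (SE 0.13, edgeR adjusted p = 0.0236), or 0.80 without ZT12 replicate 1. The priming factor unc-13 (FBgn0025726) had 5746, 5329 and 5075 CPM at ZT12, against 8367, 9595 and 7752 CPM at ZT0 and a log2 fold change of -0.63 (SE 0.14, edgeR adjusted p = 0.0496), or -0.73 without ZT12 replicate 1, close to the threshold. The call of Snap25 was lost in 6 of 13 alternatives and that of unc-13 in 8. Of 5 genes of chromophore supply, with a median of -0.20, 0 passed (1 at an unadjusted p under 0.05, 1 by DESeq2). Omission of ZT12 replicate 1 gave a median of -0.0027 and 1 gene called lower, Pdh, a retinol dehydrogenase of pigment cells, with a log2 fold change of -1.22 (edgeR adjusted p = 0.00494, or 0.0709 with that library). Of 7 genes of histamine release and recycling, with a median of -0.25, 0 passed (2 at an unadjusted p under 0.05, 2 by DESeq2). There, without ZT12 replicate 1, the median was -0.28, the carcinine transporter gene CarT was called higher with a log2 fold change of 0.96 (edgeR adjusted p = 0.0113, or 0.0653 with that library), and tan (t), whose enzyme frees histamine from carcinine, was called lower with -1.11 (edgeR adjusted p = 0.0364, or 0.111 with it). Among 9 tested eye transcription factors, with a median of 0.28 (-0.04 without ZT12 replicate 1), only twin of eyeless, toy (FBgn0019650), was called, with 483, 478 and 455 CPM at ZT12, against 283, 278 and 337 CPM at ZT0 and a log2 fold change of 0.70 (SE 0.13, edgeR adjusted p = 0.0271), or 0.63 without ZT12 replicate 1. Its call was lost in 5 of 13 alternatives.

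Potassium channels were the list with the most falls among the membrane genes. Of 14 tested, 4 were lower and 1 higher, which is above the 4.95% of all genes, while the median of the list was -0.01. When ZT12 replicate 1 was left out, 3 were lower and 1 higher, with a median of -0.08, where 13.4% of all genes were called. Shaker, Sh (FBgn0003380, X, bases 17924307 to 18063247, minus strand), the fast voltage-gated channel of photoreceptors, had 6277, 6257 and 6068 CPM in the ZT12 libraries, against 14491, 16155 and 15200.2 CPM in the ZT0 libraries. The log2 fold change was -1.26 (SE 0.12, edgeR adjusted p = 0.00154), or -1.32 without ZT12 replicate 1. Ether-a-go-go, eag (FBgn0000535), a delayed channel, had 1511, 1459 and 1326 CPM at ZT12, against 3645, 3862 and 4400.5 CPM at ZT0, a log2 fold change of -1.43 (SE 0.14, edgeR adjusted p = 0.00176), or -1.52 without ZT12 replicate 1. SK (FBgn0029761), the small-conductance channel opened by calcium, had 1304, 1139.7 and 1153 CPM at ZT12, against 2770.2, 2938 and 3027 CPM at ZT0, a log2 fold change of -1.24 (SE 0.13, edgeR adjusted p = 0.00241), or -1.35 without ZT12 replicate 1. In these 3 the ZT0 libraries held about 2 to 3 times the ZT12 values with no overlap. KCNQ (FBgn0033494) had 566, 642 and 635 CPM at ZT12, against 873, 963 and 1053 CPM at ZT0. Its log2 fold change of -0.62 (edgeR adjusted p = 0.0448) was -0.60 without ZT12 replicate 1 (edgeR adjusted p = 0.0559). Its call was close to the threshold and was lost in 7 of 13 alternatives. The riser was Slob (FBgn0264087), which encodes a protein that binds the Slowpoke channel, with 5110.3, 5393 and 5146 CPM at ZT12, against 1664, 1811 and 1948 CPM at ZT0 and a log2 fold change of 1.56 (SE 0.13, edgeR adjusted p = 0.000789), or 1.53 without ZT12 replicate 1. Ih (FBgn0263397), the hyperpolarization-activated cation channel, is not on the list and was taken for its value in the comparison with Set1 RNAi. It had 292, 275 and 242 CPM at ZT12, against 844, 816 and 808 CPM at ZT0, a log2 fold change of -1.57 (SE 0.12, edgeR adjusted p = 0.000639), or -1.67 without ZT12 replicate 1.

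Transcription factors that respond to activity and light stood mostly higher. Of 8 tested, 5 were higher and 1 was lower, and the median log2 fold change was 1.14 (6 and 1 without ZT12 replicate 1, with a median of 1.18). The shares over all genes were 2.52% and 2.43%, or 5.76% and 7.63% without that library. Hr38 (FBgn0014859, 2L, bases 20683462 to 20714588, minus strand), the nuclear receptor of the NR4A family and an immediate early gene in fly neurons, had 222, 254 and 318 CPM in the ZT12 libraries, against 21.9, 5.54 and 4.44 CPM in the ZT0 libraries. The log2 fold change was 4.70 (SE 0.58, edgeR adjusted p = 0.00439), or 4.77 without ZT12 replicate 1. ZT0 replicate 1 held the highest ZT0 level, still far below every ZT12 library. Stripe, sr (FBgn0003499), the fly Egr factor, had 79.6, 84.2 and 108 CPM at ZT12, against 23.3, 13.3 and 11.2 CPM at ZT0, a log2 fold change of 2.56 (SE 0.27, edgeR adjusted p = 0.0025), or 2.61 without ZT12 replicate 1. Kayak, kay (FBgn0001297), the fly Fos, had 345, 319 and 398 CPM at ZT12, against 142, 133 and 97.4 CPM at ZT0, a log2 fold change of 1.56 (SE 0.17, edgeR adjusted p = 0.0025), or 1.54 without ZT12 replicate 1. These 3 stand for the classes of early genes known in vertebrate neurons. CrebA (FBgn0004396) and Atf3 (FBgn0028550), both bZIP factors, had log2 fold changes of 1.26 (SE 0.13, edgeR adjusted p = 0.00228), or 1.30 without ZT12 replicate 1 and 1.01 (SE 0.18, edgeR adjusted p = 0.0219), or 1.07 without ZT12 replicate 1. The call of Atf3 was lost in 5 of 13 alternatives. CrebB (FBgn0265784), the fly CREB, had 52.8, 72.5 and 75.9 CPM at ZT12, against 48.6, 37.9 and 39.1 CPM at ZT0 and passed only without ZT12 replicate 1 (edgeR adjusted p = 0.0704 with it and 0.00445 without). Jra (FBgn0001291), the fly Jun, was at 0 in ZT12 replicate 1 and at 11.4 and 11.5 CPM in the others, against 10.7 to 18.3 CPM at ZT0, and did not pass (edgeR adjusted p = 0.771, or 0.335 without that library). Mef2 (FBgn0011656), a MADS-box factor, ran the other way with 281, 287 and 254 CPM at ZT12, against 566, 587 and 554 CPM at ZT0 and a log2 fold change of -1.01 (SE 0.12, edgeR adjusted p = 0.00317), or -1.08 without ZT12 replicate 1.

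Among the hormone and metabolic lists the clearest set of values was that of the ecdysone response. Of 10 genes, 0 were higher and 3 lower, with a median of -0.48, where 2.43% of all genes tested were lower. With ZT12 replicate 1 left out 4 were lower (7.63% of all genes), with a median of -0.55. The ecdysone receptor gene EcR (FBgn0000546, 2R, bases 6087873 to 6169087, minus strand) had 83.3, 127 and 117 CPM in the ZT12 libraries, against 381, 376 and 361 CPM in the ZT0 libraries, a log2 fold change of -1.74 (SE 0.16, edgeR adjusted p = 0.00132), or -1.61 without ZT12 replicate 1. The early-response genes Eip75B (FBgn0000568) and Eip74EF (FBgn0000567) had 279.8, 314 and 358 CPM at ZT12, against 758, 733 and 629.5 CPM at ZT0, and 333, 272 and 263 CPM at ZT12, against 515, 537 and 476 CPM at ZT0. Their log2 fold changes were -1.11 (SE 0.13, edgeR adjusted p = 0.00301), or -1.07 without ZT12 replicate 1 and -0.77 (SE 0.15, edgeR adjusted p = 0.0283), or -0.94 without ZT12 replicate 1. The call of Eip74EF was lost in 6 of 13 alternatives, the replicate block and the omission of any library but ZT12 replicate 1. No ZT12 library of these genes reached a ZT0 library. In the insulin and TOR list, 1 of 16 was higher and 2 lower, with a median of -0.14 (3 and 2 without ZT12 replicate 1, with a median of -0.01). Among all genes 2.52% were higher and 2.43% lower, or 5.76% and 7.63% without that library. The kinase gene Pdk1 (FBgn0020386), which activates Akt, had 1583, 1583 and 1801 CPM at ZT12, against 509, 522 and 548 CPM at ZT0 and a log2 fold change of 1.69 (SE 0.12, edgeR adjusted p = 0.000438), or 1.68 without ZT12 replicate 1. The insulin receptor gene InR (FBgn0283499) had 40.5, 74.9 and 71.1 CPM at ZT12, against 187, 186 and 169 CPM at ZT0, and Thor (FBgn0261560), the fly 4E-BP that restrains translation, had 23, 27.4 and 18.1 CPM at ZT12, against 80, 95.2 and 59.8 CPM at ZT0. Their log2 fold changes were -1.50 (SE 0.22, edgeR adjusted p = 0.00905), or -1.31 without ZT12 replicate 1 and -1.74 (SE 0.25, edgeR adjusted p = 0.00837), or -1.80 without ZT12 replicate 1. Both fell by about 3-fold, with no overlap between the groups, and the call of InR was lost in 1 of 13 alternatives.

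Most lists of basic cell machinery showed no called member. None of 81 cytosolic ribosomal protein genes passed (11 at an unadjusted p under 0.05, 2 by DESeq2), yet 67 of them had a positive log2 fold change and their median was 0.30. Over all genes, 4051 of 9573 were positive and the median was -0.13. Of the 81 genes, 2 were called higher and 1 lower without ZT12 replicate 1, with a median of 0.28. None of 62 mitochondrial ribosomal protein genes passed (2 at an unadjusted p under 0.05, 0 by DESeq2), with a median of 0.24, and 6 were called higher without ZT12 replicate 1, with a median of 0.30. None of 31 proteasome genes passed (0 at an unadjusted p under 0.05, 0 by DESeq2), none of 14 heat shock genes (2 and 0), none of 12 glycolytic genes (2 and 2), none of 14 genes of H3K4 methyltransferase complexes (0 and 0) and none of 150 snoRNAs (2 and 1). Their medians were 0.01, -0.13, -0.11, -0.02 and -0.01 in this order, and 0.19, -0.10, -0.15, -0.04 and -0.38 without ZT12 replicate 1, where 1 glycolytic gene was called lower and 0 members of the other 4 lists were called. Of 61 genes of oxidative phosphorylation 1 was higher and 1 lower, with a median of 0.03 (1 and 2 without ZT12 replicate 1, with a median of 0.07), where 4.95% of all genes were called. The riser, UQCR-11L (FBgn0050354), had 61.8, 50.3 and 55.4 CPM at ZT12, against 7.09, 8.59 and 7.72 CPM at ZT0 and lies inside Acsl, whose values moved with it and are given below. The other was ND-51 (FBgn0031771), a complex I subunit, with 39.2, 32.5 and 28.9 CPM at ZT12, against 65.5, 62.7 and 63.2 CPM at ZT0 and a log2 fold change of -0.88 (SE 0.18, edgeR adjusted p = 0.0396), or -1.06 without ZT12 replicate 1, and its call was lost in 6 of 13 alternatives. Of 21 autophagy genes, with a median of -0.36, 0 were higher and 1 was lower, where 2.43% of all genes were lower. Omission of ZT12 replicate 1 gave 2 lower and a median of -0.24. The gene called in both fits was Atg4a (FBgn0031298), with 27.6, 22.1 and 22.6 CPM at ZT12, against 59.5, 60 and 66.2 CPM at ZT0 and a log2 fold change of -1.32 (SE 0.19, edgeR adjusted p = 0.00881), or -1.48 without ZT12 replicate 1. Its call was lost in 4 of 13 alternatives. Of its exon bases, 51.4% lie under CG4629 on the other strand, which had 18.7, 18.7 and 17.3 CPM at ZT12, against 128, 142 and 152 CPM at ZT0. Read pairs that overlapped both genes were counted for neither, so that the values of each rest on its other bases.

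**Figure D3:**
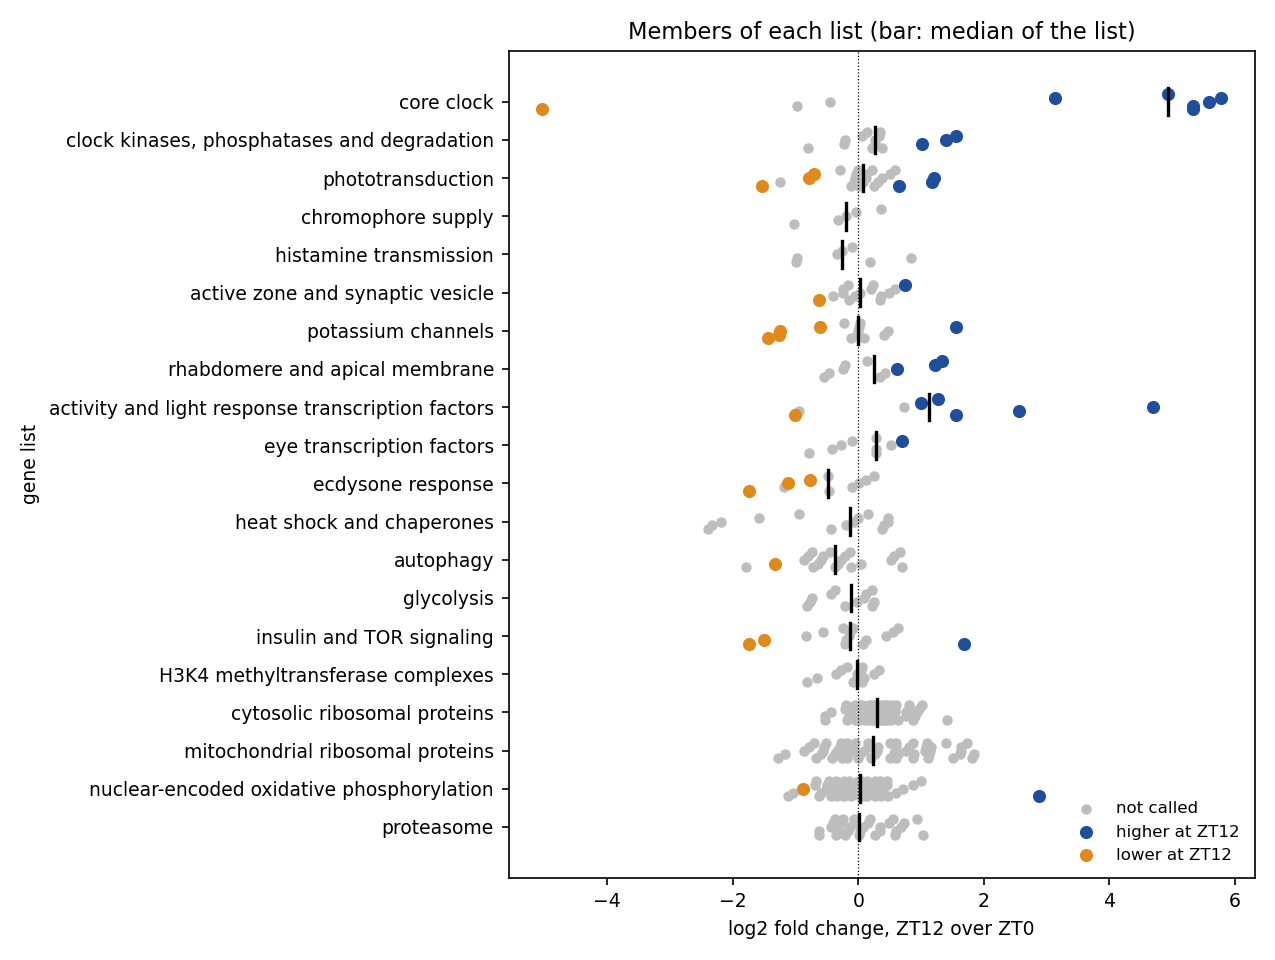
Log2 fold change of ZT12 over ZT0 for each tested member of 20 gene lists, with genes higher at ZT12 in blue, lower in orange and not called in grey, and a black bar at the median of each list. The core clock has its median at 4.93 and the activity and light response factors at 1.14, while the medians of the other lists lie between -0.48 and 0.30.

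The fat body and glial marker lists held a called gene each, where 2.52% of all genes tested were higher. FASN1 (FBgn0283427), a fatty acid synthase, had 1406, 1636 and 1934 CPM at ZT12, against 685, 439 and 618 CPM at ZT0 and a log2 fold change of 1.57 (SE 0.17, edgeR adjusted p = 0.00252), or 1.64 without ZT12 replicate 1. It was 1 of 5 fat body markers called, and the other 4 did not pass. Eaat1 (FBgn0026439), the glutamate transporter of astrocytes, had 71.7, 88.4 and 96 CPM at ZT12, against 53.1, 25.2 and 30.6 CPM at ZT0 and a log2 fold change of 1.30 (SE 0.25, edgeR adjusted p = 0.0303), or 1.37 without ZT12 replicate 1, the only one called of 5 glial markers, a call that was lost in 5 of 13 alternatives. The part of other cell types in these 2 results was not tested.

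The 10 largest rises and 10 largest falls among genes with a mean of 10 CPM or more in the higher time point included 5 and 3 genes that lie inside a longer one called the same way. Among the rises were the clock genes Cipc, tim, per, vri and cwo, and 5 genes nested in a riser. CG14556 (FBgn0039413, 3R, bases 26126659 to 26127868, plus strand) had 88.7, 67.8 and 51.6 CPM at ZT12, against 0.476, 0.39 and 0.386 CPM at ZT0, a log2 fold change of 7.39 (SE 0.34, edgeR adjusted p = 8.89e-05), or 7.12 without ZT12 replicate 1, and lncRNA:CR46060 (FBgn0267729) on the minus strand had 28.9, 40.1 and 34.9 CPM at ZT12, against 0.714, 0.781 and 0.579 CPM at ZT0. Both lie in Cipc. Within Hr38, on the strand opposite to it, lncRNA:CR44187 (FBgn0265076, 2L, bases 20710096 to 20711006, plus strand) had 54.7, 46.3 and 64.6 CPM at ZT12, against 2.0, 0.703 and 0.482 CPM at ZT0. Beside it lncRNA:CR44188 (FBgn0265077) had 26.4, 37.2 and 54 CPM at ZT12, against 2.43, 1.41 and 0.482 CPM at ZT0. The highest log2 fold change of all called genes was that of lncRNA:CR46495 (FBgn0287668, 2L, bases 3495334 to 3496000, plus strand), at 7.69 (SE 0.64, edgeR adjusted p = 0.000896), or 8.02 without ZT12 replicate 1. It had 12.6, 27.7 and 34.6 CPM at ZT12, against 0.0952, 0.0781 and 0.193 CPM at ZT0. These ZT0 values are 2, 1 and 2 counts, so the size of the ratio is uncertain. The gene is transcribed against tim, and 81.7% of its bases are also exon of tim. Pairs that overlapped exons of both were counted for neither, so that its values rest on the remaining bases.

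Among the falls, the largest was CG32371 (FBgn0052371, 3L, bases 7767269 to 7768352, minus strand), which lies within Clk on the same strand. It had 1 count in ZT12 replicate 1 and 0 in both others, against 32.1, 35.9 and 40.8 CPM at ZT0. Its summed counts were 1 and 1557, a ratio of ZT0 over ZT12 of 1198 after scaling by depth (95% exact interval 215 to 47350, counting error only). Clk, given above, and Achl (FBgn0033936, 2R, bases 14420324 to 14424764, plus strand) were among the falls. Achl had 43, 58.3 and 10.2 CPM at ZT12, against 922, 717 and 1186 CPM at ZT0, a log2 fold change of -4.63 (SE 0.62, edgeR adjusted p = 0.00624), or -4.81 without ZT12 replicate 1. Osi24 (FBgn0037409), of the Osiris family, had 0, 1.77 and 0.508 CPM at ZT12, against 24.4, 39.1 and 41.1 CPM at ZT0, and eIF3d2 (FBgn0037994), a relative of a translation initiation factor subunit, had 0, 0.758 and 0.725 CPM at ZT12, against 11.9, 17.9 and 11.9 CPM at ZT0. The ZT0 libraries were far above for each. The neighbours lncRNA:CR44121 (FBgn0264952) and lncRNA:CR44120 (FBgn0264951) had 0, 0.168 and 0.435 CPM at ZT12, against 19.2, 20 and 38.5 CPM at ZT0, and 1.92, 0.842 and 0.508 CPM at ZT12, against 21.8, 20.2 and 44.6 CPM at ZT0, with ZT0 replicate 3 the highest in both. CG46491 (FBgn0287631) had 0, 3.62 and 2.32 CPM at ZT12, against 34.6, 32.7 and 42.2 CPM at ZT0. Odorant-binding protein 69a, Obp69a (FBgn0011279), had 0.60, 2.11 and 1.45 CPM at ZT12, against 15.4, 18.3 and 20.4 CPM at ZT0 and lies in CG32104, and lncRNA:CR43904 (FBgn0264505) had 0, 1.85 and 2.47 CPM at ZT12, against 23.3, 30.5 and 28.9 CPM at ZT0 and lies in EcR. Their adjusted p-values ranged up to 0.0487 by edgeR, and for lncRNA:CR44121, Osi24, eIF3d2, lncRNA:CR43904 and CG46491 the ZT12 replicate 1 count was 0. All 10 falls were called without that library. Of 13 alternatives, the call was lost in 7 for CG46491, 7 for lncRNA:CR43904, 6 for eIF3d2, 3 for Osi24 and 2 for Obp69a. It was lost in 0 for CG32371, Clk, Achl, lncRNA:CR44121 and lncRNA:CR44120. Of these 10 falls, only Clk and Achl had a value under the filter of 1 CPM in all 6 libraries. For the others that alternative could neither keep nor lose the call.

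Called nested genes mostly shared the direction of their hosts. Of the genes tested, 1530 (16%) lay wholly inside a longer tested gene. Where the host was higher at ZT12, 32 of 99 nested genes were higher and 0 lower, and where it was lower, 26 of 131 were lower and 0 higher. Inside hosts that were not called, 7 were higher and 11 lower of 1300. The 58 nested genes that shared the call of their host make up 13.3% of the genes called higher and 11.2% of those called lower, in 22 and 19 hosts. Of them, 20 and 14 lie on the strand opposite to the host, and 29 and 23 have less than 10% of their exon bases under another gene. The share that comes from intron reads of the host cannot be told from counts without strand and was not tested.

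Some examples show how far this reaches, and they were chosen after their values were seen. Goliath, gol (FBgn0004919, 2R, bases 25072627 to 25084347, minus strand), a ubiquitin ligase of endosomes, had 2698, 2738 and 2485 CPM in the ZT12 libraries, against 329.9, 324 and 377 CPM in the ZT0 libraries, a log2 fold change of 2.98 (SE 0.13, edgeR adjusted p = 7.41e-05), or 2.92 without ZT12 replicate 1. Inside it, on the other strand, lie tRNA:Ala-CGC-1-1, tRNA:Ala-CGC-1-2 and tRNA:Ala-CGC-1-3. The first had 59.7, 57 and 46.3 CPM at ZT12, against 3.33, 3.9 and 4.34 CPM at ZT0. The others rose as well, by log2 fold changes of 3.69 and 2.76 (edgeR adjusted p = 0.000991 and 0.00827), or 3.29 and 2.37 without ZT12 replicate 1, but reads between such copies may be split by the counting. The 3 tRNA genes make up every tRNA called higher among 46 tested, and the call of tRNA:Ala-CGC-1-3 was lost in 3 of 13 alternatives. Hikaru genki, hig (FBgn0010114), a protein of the synaptic cleft, had 505, 569.9 and 652 CPM at ZT12, against 244, 206 and 241 CPM at ZT0 and a log2 fold change of 1.37 (SE 0.12, edgeR adjusted p = 0.00129), or 1.41 without ZT12 replicate 1. The cytochrome P450 genes Cyp4p1, Cyp4p2 and Cyp4p3 lie in it on the other strand and had log2 fold changes of 1.79, 1.76 and 2.07 (edgeR adjusted p = 0.0219, 0.00321 and 0.00404), or 2.03, 1.89 and 2.16 without ZT12 replicate 1. The call of Cyp4p1 was lost in 6 of 13 alternatives and those of Cyp4p2 and Cyp4p3 in 0. Puckered, puc (FBgn0243512), the phosphatase that restrains JNK, had 807, 735 and 774 CPM at ZT12, against 141, 122 and 128 CPM at ZT0, and lncRNA:CR44331 inside it had 220.2, 221 and 206 CPM at ZT12, against 28, 36.2 and 36.2 CPM at ZT0. Acsl (FBgn0263120), a long-chain acyl-CoA synthetase, had 797, 896 and 994 CPM at ZT12, against 236, 199 and 223 CPM at ZT0. Their log2 fold changes were 2.61 for puc, 2.72 for lncRNA:CR44331, 2.07 for Acsl and 2.88 for UQCR-11L within it (edgeR adjusted p = 6.45e-05, 0.000342, 0.000169 and 0.000745). Without that library they were 2.53, 2.66, 2.11 and 2.76 in the same order. The only tRNA called lower, tRNA:Arg-ACG-1-2, lies in EcR and had summed counts of 2 at ZT12 and 173 at ZT0, a ratio of ZT0 over ZT12 of 66.6 (95% exact interval 18.1 to 554). Its call held without ZT12 replicate 1 and was lost in 6 of 13 alternatives, of which the filter of 1 CPM in all 6 libraries gave it no value.

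**Figure D4:**
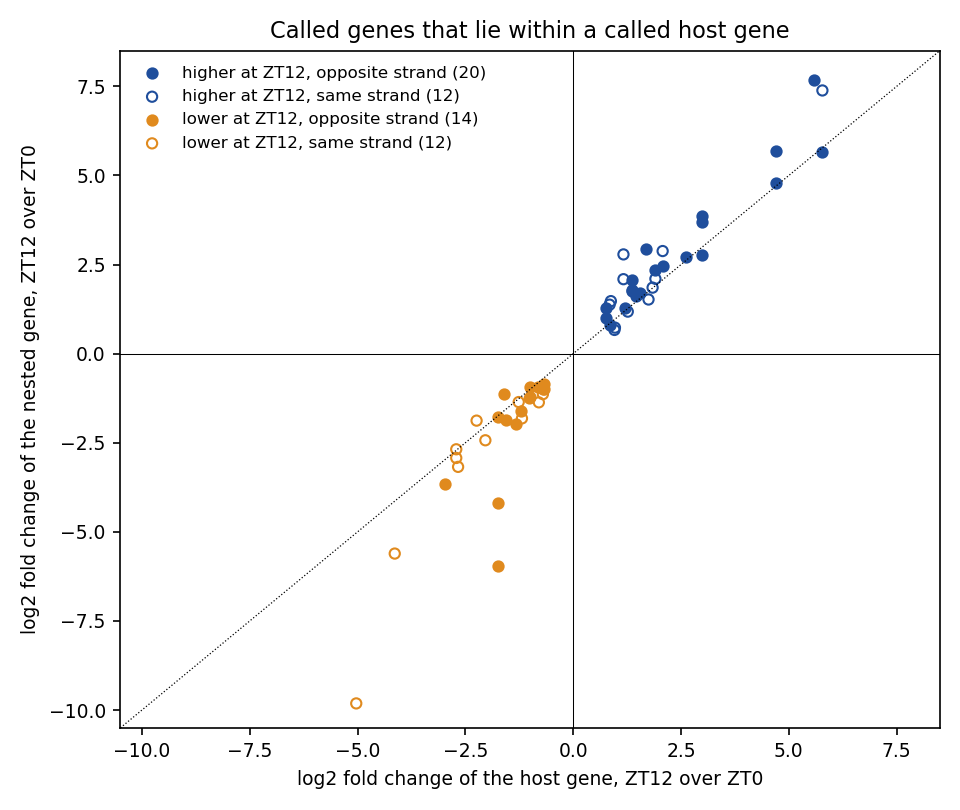
Log2 fold change of ZT12 over ZT0 of the 58 called genes that lie within a host called the same way (vertical axis) against that of the host (horizontal axis), filled where the nested gene is on the opposite strand and open where it is on the same strand, with a dotted line of equality. All points lie in the quadrants of equal sign, which the shared call fixes, 32 above 0 and 26 below.

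The 12 other control libraries placed both time points within the day. Of the 241 genes higher at ZT12, the mean was highest at ZT4 in 40, at ZT8 in 65, at ZT12 in 120, at ZT16 in 15 and at ZT20 in 1, where all genes tested peaked at these times in 31.2%, 16.5%, 17.4%, 11.4% and 12.8%. Of the 233 lower genes the mean was highest at ZT0 in 100, at ZT4 in 15, at ZT16 in 9 and at ZT20 in 109, where 10.7% of all genes tested peaked at ZT0. The time points of the call enter these counts, so they are a description. In libraries the call did not use, 18.4% of 9871 genes passed between ZT8 and ZT20 (8.65% higher at ZT8 and 9.73% lower). Of the genes higher at ZT12, 177 were higher at ZT8 than at ZT20 and 4 lower. Of those lower at ZT12, 0 were higher and 202 lower. So most genes of the call had the same order 4 h before lights off against 4 h before lights on.

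ZT16 against ZT4, 4 h into the dark against 4 h into the light, split the same genes. This contrast called 24.3% of 9968 genes, 9.85% higher at ZT16 and 14.4% lower. Of the genes higher at ZT12, 75 were higher at ZT16 than at ZT4, 89 were lower and 77 were neither. Of those lower at ZT12, 100 were higher at ZT16, 35 lower and 98 neither. The 6 risers of the core clock belonged to the first set. From ZT0 to ZT20 in steps of 4 h, tim had means of 351 ± 23.5, 349.9 ± 11.2, 9823 ± 1126, 16429.8 ± 324, 11369.9 ± 409.8 and 1169 ± 125 CPM (SD, n = 3 at each time point), and per had 24.1 ± 1.39, 56.5 ± 5.53, 624 ± 35.8, 942 ± 2.62, 894 ± 119 and 29.4 ± 12.7 CPM. At ZT4 tim was still at its ZT0 level, while every per value was above those at ZT0 (53.1 to 62.8 CPM against 22.5 to 25.1 CPM), and both genes were high at ZT16. The second set was already high 4 h into the light and low 4 h into the dark. Hr38 had means of 10.6 ± 9.75, 423 ± 75.5, 262 ± 65.8, 265 ± 48.9, 15.6 ± 7.7 and 14.4 ± 6.77 CPM over the same times, and sr had 15.9 ± 6.49, 123 ± 18.9, 105 ± 11.3, 90.5 ± 15.1, 28.7 ± 6.92 and 20.3 ± 1.57 CPM. The channel gene trpl had 7965 ± 426, 16252 ± 2849, 17635 ± 2112, 18001 ± 1991, 6277 ± 488 and 4880.4 ± 1094 CPM, while trp had 4971 ± 396, 5633 ± 1548, 10244 ± 1105, 10919 ± 466, 8141 ± 60.2 and 4037 ± 914 CPM and stayed high at ZT16. Both channels were higher at ZT12 than at ZT0, while between ZT16 and ZT4 trp was called higher at ZT16 and trpl lower.

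Genes lower at ZT12 split likewise. Clk had means of 753 ± 91.1, 595 ± 48.4, 87.1 ± 33.6, 22.5 ± 4.08, 39.1 ± 11.6 and 969 ± 68.3 CPM from ZT0 to ZT20, with its lowest mean at ZT12 and its highest at ZT20. Sh had 15282 ± 835, 5444 ± 1522, 6832 ± 1583, 6201 ± 115, 13118 ± 589 and 15519.5 ± 3319.9 CPM and eag 3969 ± 389, 1593 ± 60.7, 1620.2 ± 51.3, 1432 ± 95.8, 3998 ± 144 and 4654 ± 686 CPM. These channels were low at every time point of the light phase after ZT0 and were high from ZT16 on, unlike Clk, which was still low at ZT16. EcR had means of 373 ± 10.4, 165 ± 24.5, 133 ± 14.6, 109 ± 22.9, 381 ± 19.3 and 513 ± 22.9 CPM and Mef2 of 569 ± 16.8, 322 ± 42.3, 249 ± 26.1, 274 ± 17.3, 776 ± 28.5 and 861 ± 95.3 CPM, and both were likewise low from ZT4 to ZT12 and high from ZT16 on. Achl had 942 ± 235, 545 ± 209, 18.2 ± 5.05, 37.2 ± 24.6, 808 ± 210.2 and 1541 ± 339 CPM, with the lowest mean at ZT8 and not at ZT12. Eaat1 reached its highest mean at ZT4, with 36.3 ± 14.8, 641 ± 114, 159.9 ± 32.5, 85.4 ± 12.4, 61.3 ± 9.32 and 43.9 ± 7.25 CPM, far above its levels at both ZT12 and ZT0.

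**Figure D5:**
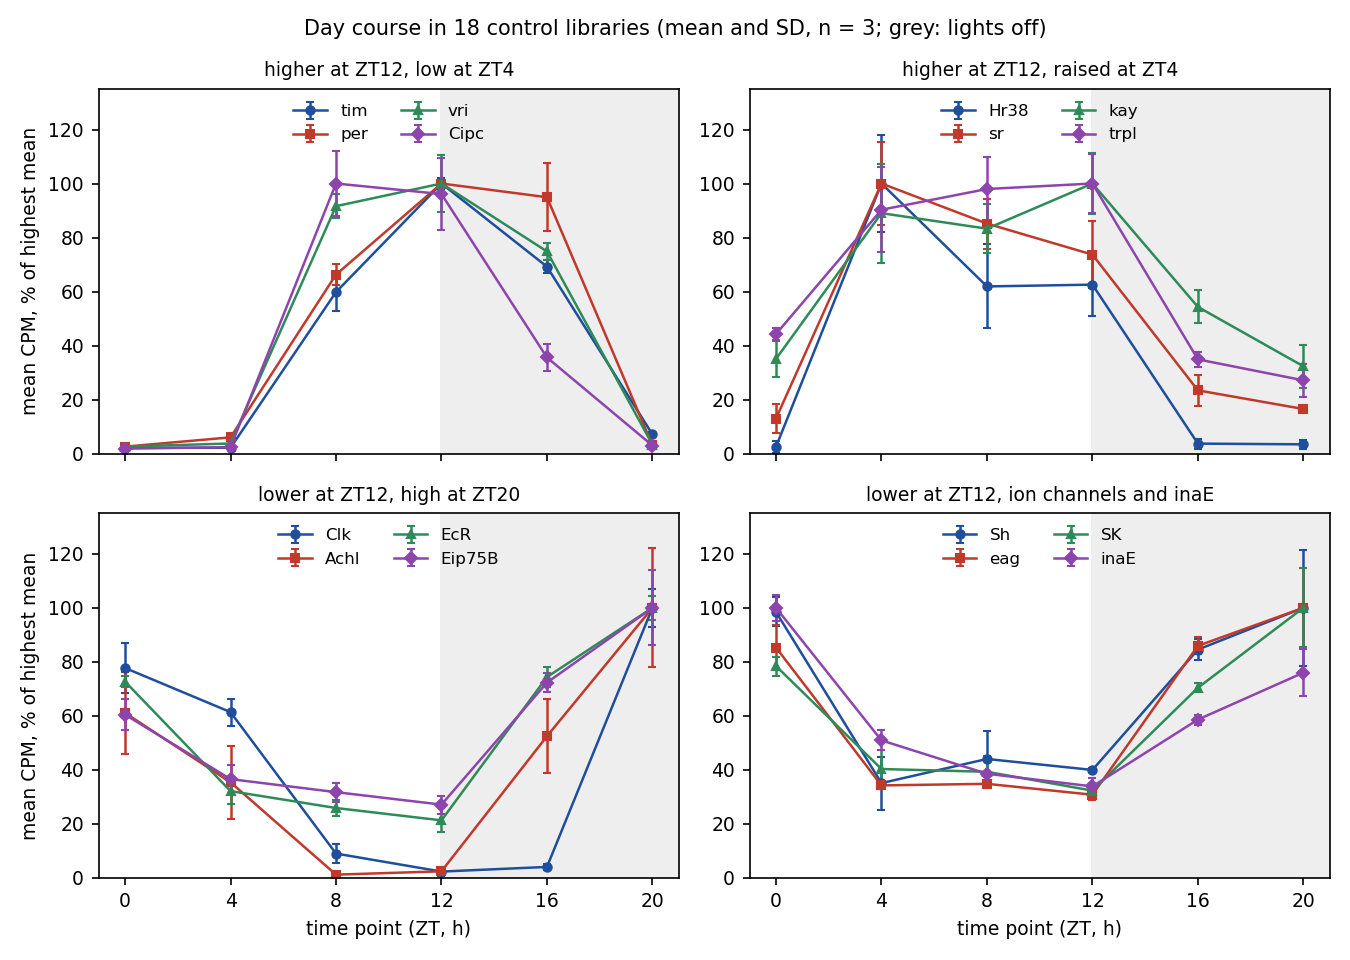
Mean CPM as a percentage of each gene's highest mean (vertical axis, bars are SD, n = 3) against time point from ZT0 to ZT20 (horizontal axis, grey where lights were off) in the 18 control libraries. The upper panels hold genes higher at ZT12 that were low at ZT4 (tim, per, vri, Cipc) or already raised there (Hr38, sr, kay, trpl), and the lower panels genes lower at ZT12 that reached their highest mean at ZT20 or ZT0.

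The same comparison in flies with Set1 RNAi used none of these libraries. There, 515 genes were higher at ZT12 (5.11%) and 347 lower (3.45%), together 8.56% of 10072. Of the 241 genes higher in the control, 238 had the same sign with Set1 RNAi and 197 were called higher, which is 81.7% of the control list and 38.3% of the Set1 list. Of the 233 lower genes, 228 had the same sign and 166 were called lower, 71.2% of the control list and 47.8% of the Set1 list, and 0 of either list were called the opposite way. A direct test of whether the time difference differed between Set1 RNAi and mCherry RNAi called 1 of 10322 genes (0.00969%), with 412 at an unadjusted p under 0.05. That gene was Ih, which had 275, 300.0 and 237 CPM at ZT12 and 400.5, 313 and 333 CPM at ZT0 with Set1 RNAi, against 292, 275 and 242 CPM at ZT12 and 844, 816 and 808 CPM at ZT0 with mCherry RNAi. The levels of both genotypes overlapped at ZT12, and at ZT0 every Set1 RNAi library was lower. The difference in log2 fold change was 1.38 (SE 0.18, edgeR adjusted p = 0.0363), a call that was kept in only 2 of 14 alternatives. For the other genes the difference was not called, which does not show that their time differences are alike.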

How the data were processed

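Nuclear RNA-seq counts of 6 control libraries were compared, 3 at ZT12 and 3 at ZT0, grouped by their labels. The authors trimmed the reads, aligned them with HISAT2 2.2.1 to BDGP6.46, and deposited raw counts of read pairs per feature from featureCounts 2.0.1, on exons, without strand and without pairs that overlap several features. The file headers call the control WT and the labels call it mCherry RNAi. Only the 17895 FBgn features of 24278 were used, and a name table gave 17854 of them a symbol. The removal of unwanted variation that the study applied was not run here.

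Genes with at least 1 CPM in all 3 libraries of either time point were tested with edgeR 4.0.16 (quasi-likelihood, TMM, Benjamini-Hochberg over all genes tested), and called at an adjusted p under 0.05. DESeq2 1.42.0 was an alternative. Printed CPM are per 1000000 FBgn counts, without TMM factors. No molecular identifiers are stated, so intervals cover counting error only. Named genes are the core clock list, the 10 largest and 10 smallest log2 fold changes among called genes with at least 10 CPM in the higher time point and no overlap between groups, and up to 4 members with the smallest p of each other list. The members and lists were chosen with earlier results of these data known. Nested genes were found from the coordinates in the files. The fits were tested on simulated counts with known changes. That of ZT12 over ZT0 found 86 of 181 genes changed 4-fold and 10 of 178 changed 2-fold. It called 4 of 8271 and 1 of 8298 unchanged genes. That of the difference between Set1 RNAi and mCherry RNAi found 79 of 192 genes changed 4-fold and called 5 of 9446 others. Many true differences can thus go uncalled, and a list without calls does not show that its genes were unchanged.

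Alternatives were other size factors, DESeq2's Wald test, other filters on low counts, all features, all 18 control libraries, the replicate number as a block, a stricter threshold, and each library left out in turn. No sequence was printed.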

Additional observations from a re-analysis of the deposited data

Results flagged for a closer look

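Of the genes tested for a different time difference in 2 genotypes, Ih (FBgn0263397) was the only one called. Its log2 fold change of ZT12 over ZT0 was -0.21 with Set1 RNAi (edgeR adjusted p = 0.406), against -1.57 with mCherry RNAi, a difference of 1.38 (SE 0.18, edgeR adjusted p = 0.0363) in a test of the difference itself. With Set1 RNAi its mean was 271 ± 31.8 CPM at ZT12 and 349 ± 45.8 CPM at ZT0, against 269.8 ± 25.1 CPM at ZT12 and 823 ± 18.9 CPM at ZT0 with mCherry RNAi (SD, n = 3 each). The call was kept in 2 of 14 alternatives, and the adjusted p ranged between 0.0204 and 0.178 by edgeR.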

How the results depend on the processing

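Of 80 called genes named in the text, 54 kept their call under each of the 13 alternatives that gave them a value. The filter of 1 CPM in all 6 libraries gave a value for 66 of the 80. None changed direction under any alternative, but the groups did not overlap in any called gene, so a change of direction was hardly possible. The counts of genes moved more. DESeq2's Wald test called 461 genes higher at ZT12 and 462 lower, including all 241 and 230 of the 233 called by edgeR. A fit of all 18 control libraries called 700 higher and 668 lower. The threshold of an adjusted p under 0.01 with a 2-fold difference left 106 higher and 93 lower. Leaving out 1 library gave 113 to 570 higher and 88 to 755 lower, with the highest counts in both directions without ZT12 replicate 1 and the lowest without ZT0 replicate 2. Leaving out ZT0 replicate 3, ZT12 replicate 2 or ZT12 replicate 3 gave 121, 126 and 134 higher and 100, 104 and 116 lower, and leaving out ZT0 replicate 1 gave 147 and 182. In these fits a time point with 2 libraries shares its spread with the other. With DESeq2's size factors, other filters or all features the counts stayed within 1.5 times of 241 and 233, although the filter of 1 CPM in all 6 libraries called 260 and 335 genes. Deviations from the group means showed no sign of pairing by replicate number. Same-numbered libraries had correlations of 0.06, -0.12 and -0.02, and differently numbered ones of -0.16 to 0.22. With 3 libraries per time point these values cannot exclude a shared cross or day. With the replicate number as a block 107 genes were higher and 104 lower. The difference between Set1 RNAi and mCherry RNAi was called for 0 genes with DESeq2's size factors, for 0 with the replicate block, and for 0 to 1 genes with a library left out, where the 1 gene remained without mCherry RNAi ZT12 replicate 1 or without Set1 RNAi ZT12 replicate 3. The filter of 1 CPM left genes of lower level untested at these depths.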

Other observations

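Some called genes outside the lists are given here, chosen after their values were seen. The noncoding RNA lncRNA:Hsromega (FBgn0001234, 3R, bases 21296127 to 21317836, plus strand), the scaffold of omega speckles and known from heat shock, took 36047, 41236 and 58041 CPM at ZT12, against 10483, 10931 and 6512 CPM at ZT0. Its log2 fold change was 2.32 (SE 0.25, edgeR adjusted p = 0.00263), or 2.42 without ZT12 replicate 1. From ZT0 to ZT20 its means were 9309 ± 2433, 12296 ± 3926, 28109 ± 1363, 45108 ± 11497, 23988 ± 3096 and 15361 ± 4236 CPM (SD, n = 3), highest at ZT12. None of the heat shock protein genes tested was called beside it. Ank2 (FBgn0261788), the ankyrin of axons, had 21086, 17334 and 11953 CPM at ZT12, against 35248, 40675 and 42071 CPM at ZT0 and a log2 fold change of -1.19 (SE 0.23, edgeR adjusted p = 0.0312), or -1.44 without ZT12 replicate 1. The call of lncRNA:Hsromega was kept in all 13 alternatives and that of Ank2 was lost in 5.

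Beside FASN1 and Acsl, 3 genes of phospholipid synthesis were higher at ZT12. Pss (FBgn0287585), a phosphatidylserine synthase, had 922, 769.7 and 651 CPM at ZT12, against 116, 101 and 131 CPM at ZT0, a log2 fold change of 2.80 (SE 0.19, edgeR adjusted p = 0.000342), or 2.61 without ZT12 replicate 1. LPCAT (FBgn0052699), which acylates lysophospholipids, had 234, 285 and 312 CPM at ZT12, against 85.2, 83.7 and 85.5 CPM at ZT0, a log2 fold change of 1.75 (SE 0.13, edgeR adjusted p = 0.000639), or 1.81 without ZT12 replicate 1. Lpin (FBgn0263593), a phosphatidate phosphatase, had 1885, 1882 and 1897 CPM at ZT12, against 1062, 1098 and 1084 CPM at ZT0, a log2 fold change of 0.84 (SE 0.10, edgeR adjusted p = 0.00447), or 0.80 without ZT12 replicate 1. Lower at ZT12 were 3 genes of ion transport. Ndae1 (FBgn0259111), an anion exchanger driven by sodium, had 219.8, 93.9 and 69.6 CPM at ZT12, against 778, 811 and 937 CPM at ZT0, with ZT12 replicate 1 the highest of its group, and a log2 fold change of -2.67 (SE 0.44, edgeR adjusted p = 0.0155), or -3.38 without ZT12 replicate 1. Ncc69 (FBgn0036279), a cation chloride cotransporter, had 132, 103 and 87.6 CPM at ZT12, against 589, 653 and 741 CPM at ZT0, a log2 fold change of -2.58 (SE 0.21, edgeR adjusted p = 0.000896), or -2.81 without ZT12 replicate 1. Atpalpha (FBgn0002921), the catalytic subunit of the sodium pump, had 5749.9, 5136 and 4501 CPM at ZT12, against 8391, 8501 and 8602 CPM at ZT0, a log2 fold change of -0.69 (SE 0.13, edgeR adjusted p = 0.032), or -0.83 without ZT12 replicate 1. In each of these genes the groups did not overlap, which holds for all 474 called genes and for 30.4% of all genes tested. Of 13 alternatives, the call was lost in 5 for Atpalpha, 3 for Ndae1 and 1 for Lpin, and in 0 for Pss, LPCAT and Ncc69. They are single genes and no list of either kind was tested.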
